A study of Mus musculus with 19 samples.

Results

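The mitochondrial ribosomal protein genes described here were the protein-coding rows of the deposited count table whose symbol starts with Mrpl or Mrps followed by a digit, which gave 78 genes of 53379 gene rows, 21963 of them protein-coding. The rule used names only and no measured value. They were measured by sequencing of polyA RNA in 19 embryos, each its own library, with the strain label B6D2F1, which were made by fertilisation in vitro, grown in KSOM medium at 37 °C and taken 96 hours after insemination. Parents in one cross were both heterozygous for an Alyref deletion (Alyref+/-), and in the other both heterozygous for a Gabpb1 deletion (Gabpb1+/-). From the Alyref parents there were 2 morulae with the KO label and 3 without, besides 3 blastocysts without it. From the Gabpb1 parents there were 3 morulae with the KO label and 2 without, besides 3 blastocysts without it. Wild-type (WT) parents gave 3 blastocysts. Non-KO embryos are WT or heterozygous without distinction, every KO embryo was a morula, and morulae and blastocysts had the same age. Each replicate was a separate embryo, and nothing in the labels says whether embryos shared parents or a fertilisation session.

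Mitochondria carry their own ribosome, which translates the few mRNAs of the mitochondrial genome into core subunits of the respiratory chain and ATP synthase. Its RNAs are made in the organelle, while all of its proteins are encoded in the nucleus, translated in the cytosol and imported. Some of those proteins have bacterial homologues, and others were added during the evolution of mitochondria. Gabpb1 encodes the β subunit of GABP, also called NRF-2, whose α subunit (Gabpa) is an ETS factor that binds DNA at a core of GGAA and is known to activate nuclear genes for mitochondrial proteins. Alyref encodes an adaptor for mRNA export.

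By textbook assignment, 51 of the 78 genes encode large-subunit proteins and 26 encode small-subunit proteins, 46 have a bacterial homologue and 31 are specific to mitochondria. The remaining gene, Mrps36 (also Kgd4), keeps a ribosomal name although its product is known as a component of the α-ketoglutarate dehydrogenase complex. Symbols are no sure guide to the subunit, because Mrps30 and Mrps18a encode proteins of the large one. The 78 genes lay on 17 chromosomes, with 11 on chromosome 11 and 0 on X. Exons of 32 of them overlap exons of another gene in the annotation, and since the strand setting of the counting is not given, reads of such pairs may not be separable.

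Libraries held 7.49 to 31.5 M gene counts and 0.501% to 1.95% of counts from the ERCC spike-in RNA. The 3 non-KO morulae of the Alyref cross were spread widely on the first principal component, with scores of -84.83, -141.9 and -2.32. The second of them had the lowest score and the lowest scaling factor (TMM, 0.8689) of all 19 embryos. The second morula labelled Gabpb1 KO had the highest ERCC share. Alyref was low in the KO morulae of its own cross, at 48.1 and 58.8 CPM (counts per M gene counts, scaled by TMM). The non-KO morulae had 211.5, 292.9 and 162.4. Gabpb1 was not lower in the other cross: its CPM was 78.7, 260.8 and 151.4 in the morulae labelled KO and 94.4 and 83.8 in the non-KO morulae (log2 difference 0.88, SE 0.39, adjusted p = 0.243). The gene count cannot show whether the deleted part was read. Per the labels, the submitters assigned KO status from missing reads in the deleted region of these same libraries. Low Alyref counts in them are therefore no independent check of the labels. Because Gabpb1 was not lower, the KO morulae of the Gabpb1 cross are called labelled Gabpb1 KO throughout. Markers of cumulus cells summed to at most 3.39 CPM and those of sperm to at most 2.02 CPM in any embryo.

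To show where an ETS factor could bind near these genes, RefSeq promoter windows on GRCm38.p6 were searched for CCGGAAG on both strands. A window holds 300 bases, 250 before the start and 50 after, and 69 of the 78 genes had one. Mrpl4, Mrpl13, Mrpl15, Mrpl19, Mrpl38, Mrpl54, Mrps28, Mrps34 and Mrps35 were not matched. The motif was present in 26 of 69 genes, or 37.68%, and in 9.93% of all 27025 genes with a window. Unlike the 69, the 27025 include many genes not expressed enough to be tested. Among tested genes with a window, counted further below, the motif was more frequent than in the 27025. Per window the share was 8.86% over all 32851 windows. Among cytosolic ribosomal protein genes 40.62% held it, and among nuclear complex I genes 15%. Of the 31 sites in the windows, 28 began within 100 bases of the start, and 5 genes had 2 or more copies. The sites below belong to the 3 genes that were lower in labelled Gabpb1 KO morulae and to 3 of the others named in that comparison, of which Mrpl52 has 2 sites; capitals mark the motif, which reads CTTCCGG where it lies on the opposite strand, and each run is written 5′ to 3′ on the strand of the gene.
Mrps21: gtagcttccgCTTCCGGtccgcagaga
Mrpl27: tccgcaagacCCGGAAGtagatctatc
Mrpl33: cgcgcatgccCCGGAAGtagtcgttga
Mrpl52, first site: aagatgtcggCTTCCGGttttcccggc
Mrpl52, second site: gccacgcccaCTTCCGGttcccttgct
Mrpl22: ttttccggtcCCGGAAGccggcctcgg
Mrpl34: actacagctcCCGGAAGgccccgcggc

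The Mrps21 run lies at chr3:95871480-95871506 on the minus strand, with its motif starting at position 19 after the start, inside the first exon. The Mrpl27 run lies at chr11:94653726-94653752 on the plus strand, with the motif starting at position -55. For Mrpl33 the run is chr5:31613938-31613964 on the plus strand and the motif starts at -3 from the RefSeq start, which lies inside the deposited gene model (chr5:31596935-31664384). A match of letters is a description and does not show binding. NRF1, also known as an activator of nuclear genes for mitochondrial proteins, has the core GCATGCG, which was found in 8 of the 69 genes (11.59%, against 4.01% of all genes). The core GATGGCG of YY1 was found in 8 genes (11.59%, against 4.04%). All genes here again include those not expressed enough to be tested. The core GCATGCG overlaps its own reverse complement, so copies were not counted for it.

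All 78 genes were expressed in every embryo, with at least 185 counts in each library, and all passed the filter for testing (an FPKM, which is CPM per kilobase of exon, of 1 in 2 or more embryos). On the FPKM scale, which divides by gene length, the median gene stood at 50.4 in WT blastocysts, and 19 genes exceeded 100. The corresponding medians were 226 for cytosolic ribosomal protein genes, 143 for nuclear complex I genes and 3.87 for all 18410 tested genes.

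The highest level was that of Mrpl18, a large-subunit protein with a bacterial homologue, at 221.9 ± 29.0 FPKM (SD, n = 3 WT blastocysts). Mrpl36, Mrps24 and Mrpl28 followed at 179 ± 17.0, 177 ± 21.9 and 174 ± 22.4 FPKM, and these 3 neighbours did not differ beyond their SD. Exons of Mrpl18 overlap Tcp1 and those of Mrpl36 overlap Ndufs6, each on the opposite strand. At the low end stood Mrpl48 at 5.51 ± 0.325, Mrps5 at 6.27 ± 1.14, Mrps9 at 9.42 ± 1.26 and Mrps30 at 12.3 ± 2.31 FPKM. Because the lengths are union exon lengths (8152 bases for Mrpl48, 739 for Mrps21), a gene with long annotated isoforms that are not used reads low on this scale. The pseudogene Mrpl48-ps had 14.7% to 60.03% of the counts of Mrpl48 over the 19 embryos.

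Summed over the 78 genes, the level ranged from 8355 to 10685 CPM, or 0.815% to 1.10% of gene counts. On the CPM scale both extremes were morulae labelled Gabpb1 KO, while the highest share of gene counts was that of a blastocyst of the Alyref cross. In the morulae labelled Gabpb1 KO the sum was 9565 ± 1167 CPM (SD, n = 3). The sum was 9592 ± 551 (n = 2) in Alyref KO morulae and 10218 ± 293 (n = 3) in their non-KO counterparts. Non-KO morulae of the Gabpb1 cross had 8895 ± 206 (n = 2). Blastocysts had 10227 ± 104 in the Alyref cross, 9398 ± 617 in the Gabpb1 cross and 9932 ± 547 in WT embryos (n = 3 each). The ranges of KO and non-KO morulae overlapped in the Alyref cross, and in the Gabpb1 cross both non-KO sums fell inside the KO range. The ratio of summed large-subunit to small-subunit FPKM lay between 1.96 and 2.72 over the 19 embryos.

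**Figure D1:**
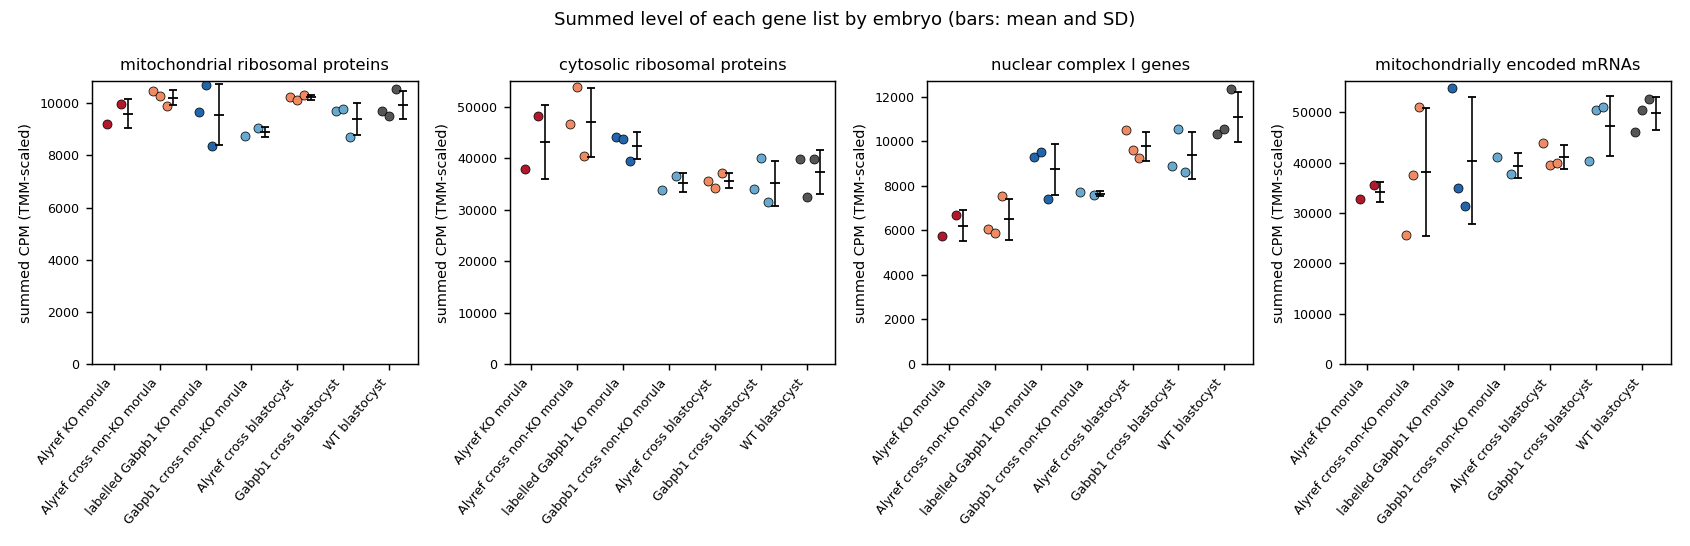
Summed CPM (y axes, from 0) of 4 gene lists in each of 19 embryos, by group; points are embryos and bars are the mean and SD. The mitochondrial ribosomal protein sum stayed between 8355 and 10685, while nuclear complex I genes were at 5876 to 7550 in non-KO morulae of the Alyref cross and 9233 to 10494 in its blastocysts.

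Between embryos of one group the genes were comparatively even. The median within-group SD on the log2 scale was 0.242 for the 78 genes, 0.212 for cytosolic ribosomal proteins, 0.283 for complex I genes and 0.319 for the 3500 tested genes of similar CPM. Mrpl43, a large-subunit protein, varied least (SD 0.110), and Mrps11, of the small subunit, varied most (0.438).

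**Figure D2:**
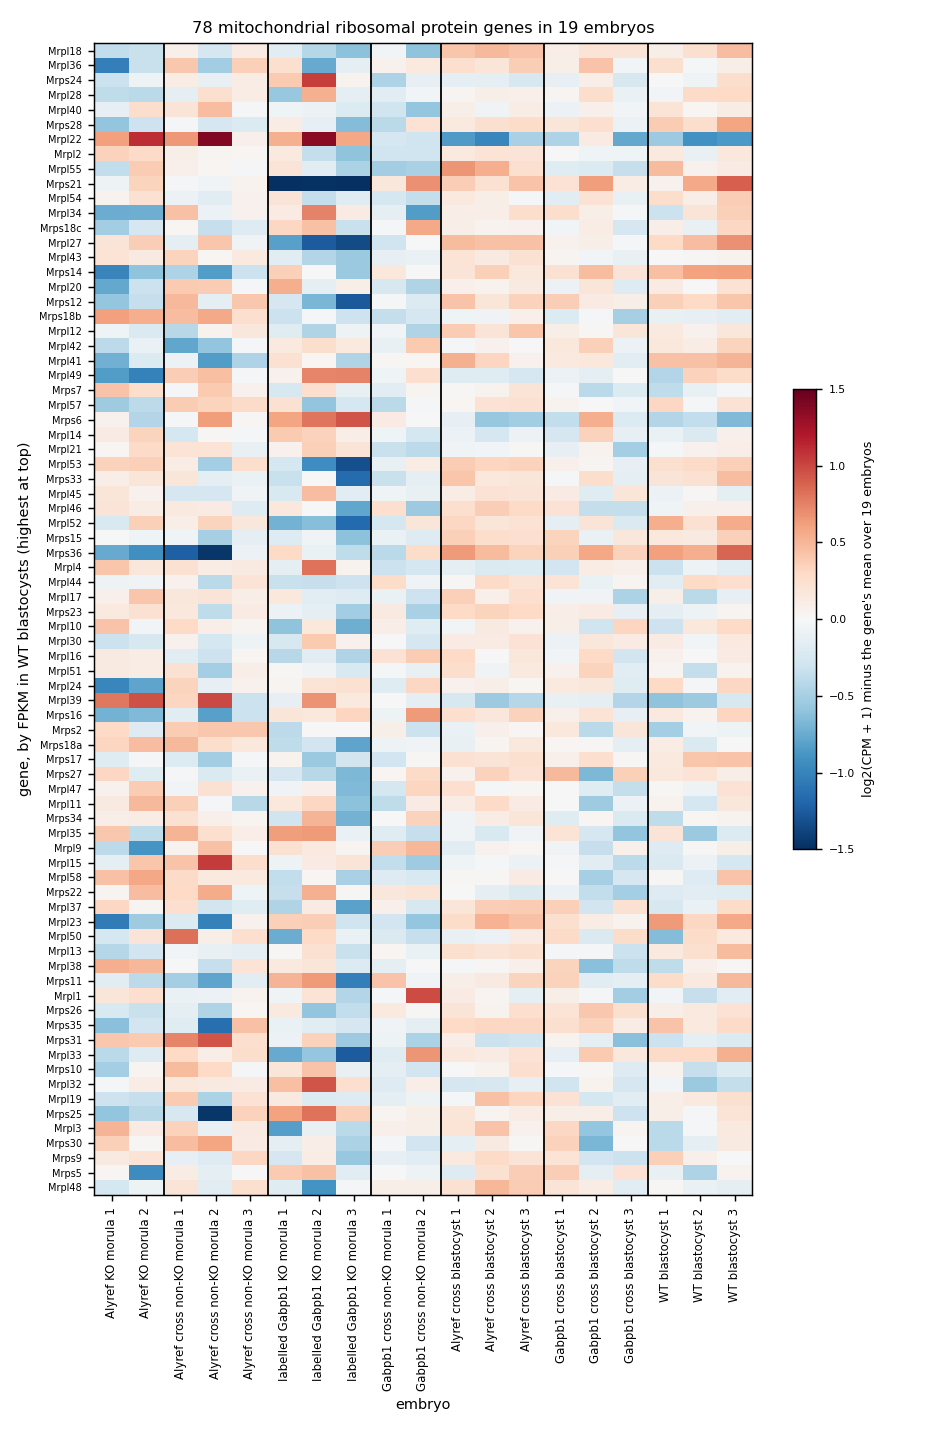
Level of each of the 78 genes (rows, ordered by FPKM in WT blastocysts) in each of 19 embryos (columns, grouped by vertical lines), as log2(CPM + 1) minus the gene's mean over the embryos. The row of Mrps21 is darkest blue in the 3 morulae labelled Gabpb1 KO, at 23.0 to 24.5 CPM. Mrpl22 is red in most morulae of the Alyref cross and in the 3 morulae labelled Gabpb1 KO, of which the second is highest.

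Morulae labelled Gabpb1 KO were compared with non-KO morulae of the same cross. Loss of Gabpb1 RNA in them was not seen in the gene counts given above, so the groups rest on the labels. The fit called 3 of the 78 genes, all lower: Mrps21, Mrpl27 and Mrpl33. Over all 18410 tested genes 1.65% were called (64 higher and 239 lower) at an adjusted p under 0.05 in edgeR's quasi-likelihood test with Benjamini-Hochberg adjustment, the test used throughout. Leaving out 1 embryo at a time gave 2 calls without KO embryo 2 or non-KO embryo 1, 1 call (Mrps21) without KO embryo 3 or non-KO embryo 2, and 4 calls without KO embryo 1. No share of all genes is given for those counts. At an unadjusted p under 0.05 in the fit of all embryos there were 11 higher and 11 lower, 28.2% of the 78 against 18.9% of all tested genes. The median log2 difference of the 78 genes was -0.01, with 39 above and 39 below 0, and that of all genes was 0.06. The list as a whole had no common direction on this scale. Scaled to the ERCC spike-in instead, the median of all genes was -0.40 and 65 of the 78 were below 0, so all values are relative to the other genes of the embryo.

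Mrps21 encodes a small-subunit protein with a bacterial homologue (ENSMUSG00000054312.6, chr3:95862634-95871519). It had 23.6, 24.5 and 23.0 CPM in the morulae labelled Gabpb1 KO and 78.9 and 113.4 CPM in the non-KO morulae. Every one of those 3 embryos was below all of the other 16, whose lowest value was 66.8 CPM in an Alyref KO morula. The log2 difference was -2.02 (SE 0.24, adjusted p = 0.000861), or 4.06-fold lower. The 3 values lay close together, while the summed level of the list had its largest SD among these embryos. No exon of another gene overlaps it.

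Mrpl27, a large-subunit protein of the bL27 family that lies near the peptidyl transferase centre (ENSMUSG00000024414.13, chr11:94653767-94660089), had 48.3, 35.4 and 33.0 CPM against 69.3 and 85.6. The difference was -0.99 (SE 0.21, adjusted p = 0.0332), or 1.99-fold lower, and again these were the lowest 3 of 19 embryos. Its exons overlap Eme1 on the opposite strand. The adjusted p was 0.0557 when the first of the non-KO pair was left out and 0.268 when the second was; without embryo 2 or 3 of those labelled KO it was 0.0837 or 0.0779.

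Mrpl33, a small large-subunit protein of the bL33 family (ENSMUSG00000106918.3), had 51.8, 58.5 and 36.3 CPM against 77.3 and 139.8. The groups did not overlap, but the non-KO pair differed widely, and the call was lost without the higher of them (log2 difference -0.66, adjusted p = 0.372) or without KO embryo 3 (-0.99, adjusted p = 0.0779). With all embryos the difference was -1.15 (SE 0.25, adjusted p = 0.0336), or 2.22-fold lower. One annotated transcript on the same strand, Gm43809, shares exon sequence with it.

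**Figure D3:**
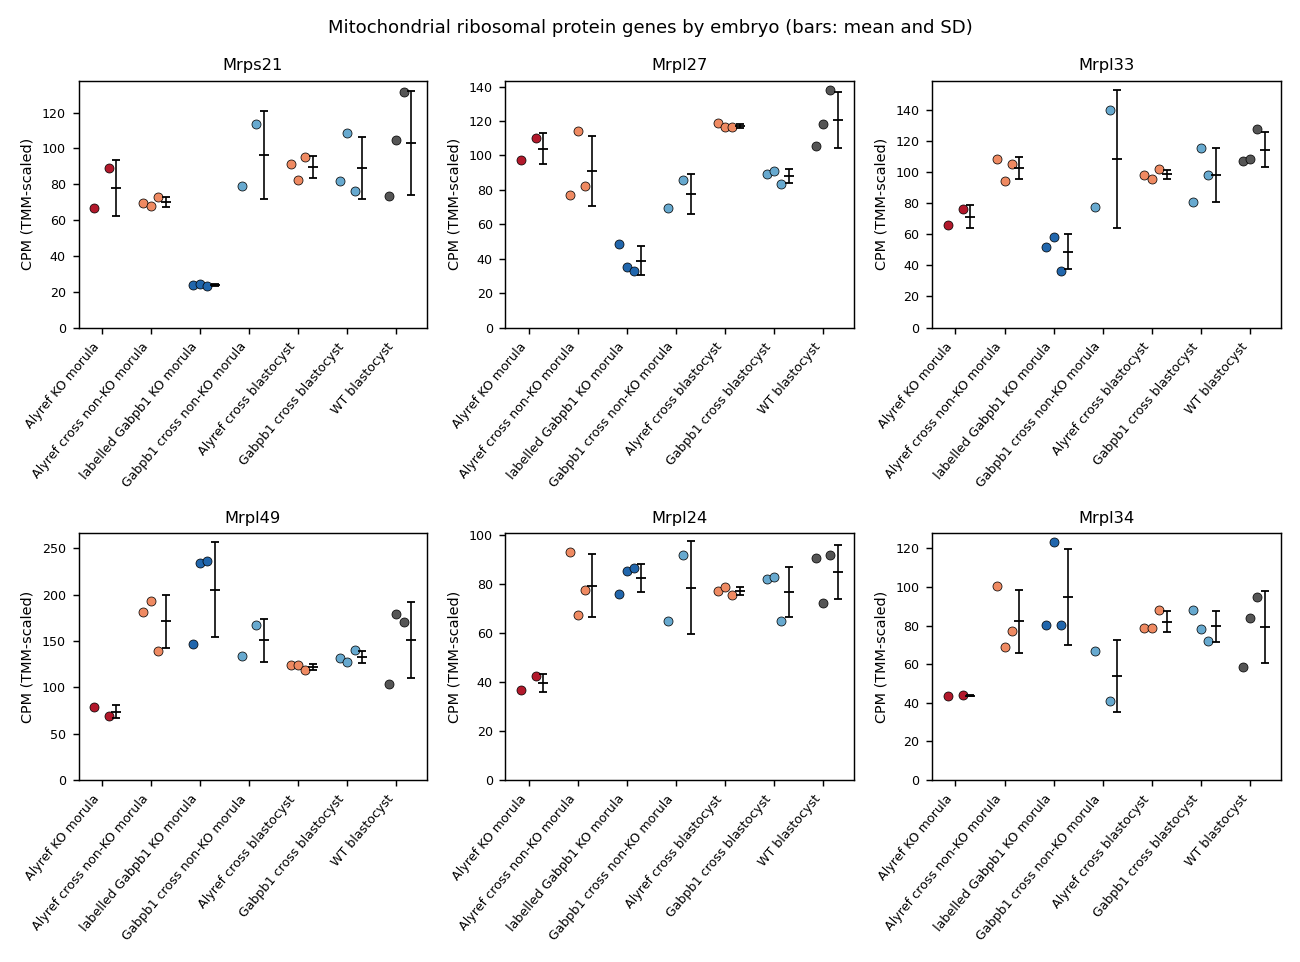
CPM (y axes, from 0) of 6 genes in each of 19 embryos by group; points are embryos and bars are the mean and SD. Mrps21, Mrpl27 and Mrpl33 are lowest in the 3 morulae labelled Gabpb1 KO, and Mrpl49, Mrpl24 and Mrpl34 are low in the 2 Alyref KO morulae.

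The next largest differences in each direction did not pass the test. Mrpl52, specific to mitochondria, had 31.1, 32.7 and 22.3 CPM against 42.9 and 58.5 (log2 difference -0.82, SE 0.23, adjusted p = 0.0816). On the other side, Mrpl22, a protein of the exit tunnel, had 372.1, 659.8 and 387.4 CPM against 217.0 and 209.1 (1.15, SE 0.37, adjusted p = 0.116). Mrps24, of the small subunit, had 323.0, 505.8 and 255.7 against 178.2 and 225.6 (0.84, SE 0.24, adjusted p = 0.0848), and it shares exon sequence with Urgcp. Mrpl34 stood at 0.81 (SE 0.27, adjusted p = 0.133) and Mrps6 at 0.73 (SE 0.29, adjusted p = 0.188). In all of these the 3 embryos labelled KO lay on one side of both non-KO embryos.

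Counted that way, 15 of the 78 genes were higher in every embryo labelled Gabpb1 KO than in both non-KO embryos, where 15.8% of all tested genes were, and 14 were lower in every one, where 16.4% of all tested genes were. Separation of the groups was thus about as frequent in the list as in the background.

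All 3 called genes hold CCGGAAG in the promoter window, as printed above. Among the 26 genes with the motif the median log2 difference was -0.16, with 20 below 0; among the 43 matched genes without it, the median was 0.06, with 16 below 0 and 0 called. The same split over all tested genes with a window gave -0.16 for the 1982 with the motif (59.7% below 0, 64 called lower and 6 higher) and 0.00 for the 7553 without it (49.7% below 0, 102 called lower and 42 higher). Mrpl22, Mrpl34 and Mrpl21 also hold the motif and had positive differences, none of which passed the test. Mrpl21 stood at 0.58 (SE 0.19, adjusted p = 0.116). In the Alyref comparison the medians were 0.07 with the motif and -0.09 without it. No test was made on this split.

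**Figure D4:**
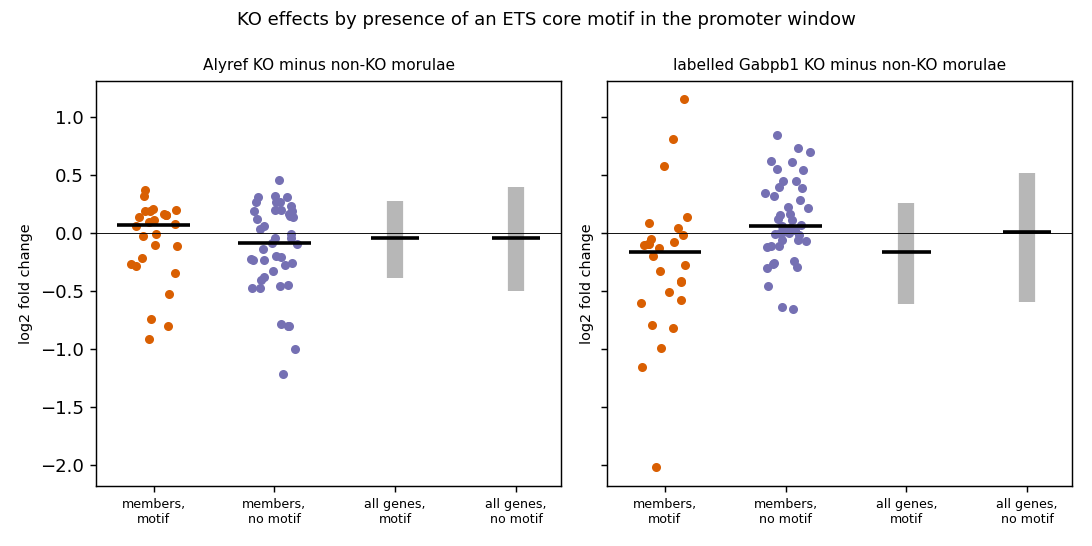
Log2 fold change (y axes) in the Alyref KO comparison (left) and the comparison of labelled Gabpb1 KO morulae (right), for genes with and without the ETS core motif; points are the 26 and 43 mitochondrial ribosomal protein genes, grey bars the quartiles over all tested genes, and black lines medians. At right the medians with the motif are -0.16 in the list and -0.16 over all genes.

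By origin, the 3 called genes all belong to the 46 with a bacterial homologue, of which 11 were higher and 6 lower at an unadjusted p under 0.05. Among the 31 mitochondria-specific genes 0 were called, with 0 higher and 5 lower at that level. By subunit, 2 of 51 large-subunit genes and 1 of 26 small-subunit genes were called. Over all tested genes 1.65% were called and 18.9% reached an unadjusted p under 0.05. With 3 calls in all, no difference by origin or subunit is shown, and none was tested.

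Genes that serve the mitochondrial ribosome were counted from lists outside the naming rule. Of 14 tested translation factors, 1 was called: Tufm, the elongation factor that brings aminoacyl-tRNA to the ribosome, had 43.8, 27.5 and 45.4 CPM against 95.4 and 102.5 (log2 difference -1.35, SE 0.24, adjusted p = 0.0126). Of 25 assembly and rRNA modification factors, 1 was called: Mrm2, a methyltransferase of the large rRNA, had 11.3, 8.4 and 8.1 CPM against 18.3 and 32.4 (-1.46, SE 0.35, adjusted p = 0.0477). None of the 22 aminoacyl-tRNA synthetase and amidotransferase genes was called (1 higher and 4 lower at an unadjusted p under 0.05), with a median of -0.48, nor were any of the 5 ribosomal proteins without the prefix (Dap3, Ptcd3, Aurkaip1, Chchd1 and Gadd45gip1), of which 0 reached an unadjusted p under 0.05.

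Cytosolic ribosomal proteins had 0 of 83 called, 19 higher and 0 lower at an unadjusted p under 0.05, and a median of 0.27. Nuclear complex I genes had 0 of 45 called and a median of 0.23, and the 13 mitochondrially encoded mRNAs had 0 called and a median of 0.23. Gabpa, the DNA-binding partner, had 241.9, 291.6 and 498.9 CPM in morulae labelled KO against 181.5 and 129.9, a difference of 1.14 (SE 0.29) that missed the threshold (adjusted p = 0.0518). Nrf1, the gene of the factor named above, stood at 0.15 (SE 0.25, adjusted p = 0.781).

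The summed level of markers of the outer cell layer was also lower in the embryos labelled Gabpb1 KO. The 6 trophectoderm markers (Cdx2, Gata3, Krt8, Krt18, Eomes and Tfap2c) summed to 333 to 2481 CPM in them and to 2507 to 4011 CPM in the non-KO morulae, against 3923 to 6608 CPM in blastocysts. Krt8 and Krt18 held most of the marker counts in each of these morulae. In counts, which are not scaled to depth, Cdx2, Gata3 and Tfap2c overlapped between the groups. Tfap2c was highest in a morula labelled KO (1732 counts). Krt18 had 15718 counts in labelled KO embryo 1 (11.2 M gene counts) and 17567 in non-KO embryo 2 (12.95 M). Scaled to depth, Krt18 overlapped between the groups too. All 6 were detected in each of these morulae, 0 were called and 2 were lower at an unadjusted p under 0.05. The part of the lower marker sum in the 3 calls was not tested. The 3 non-KO morulae of the Alyref cross also had low marker sums, of 597 to 1859 CPM. In them Mrps21 had 69.3, 67.9 and 73.0 CPM, above the morulae labelled Gabpb1 KO but below both non-KO morulae of the Gabpb1 cross and below all 9 blastocysts. Mrpl27 had 76.8, 114.3 and 82.2 CPM and Mrpl33 108.4, 94.6 and 105.4 CPM in the same 3 embryos, each above every morula labelled Gabpb1 KO. These embryos come from other parents, and no test was made of these differences across the crosses. In RNA from whole embryos, fewer cells of a type and less RNA per cell cannot be told apart.

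Alyref KO morulae were compared with non-KO morulae of their cross. None of the 78 genes was called, where 0.228% of all tested genes were (17 higher and 25 lower). At an unadjusted p under 0.05 there were 1 higher and 9 lower of the 78, against 12.1% of all tested genes in either direction. DESeq2 called 6 of the 78, all lower, and 2.73% of all genes, and limma's voom with sample weights called 8, all lower, and 4.57% of all genes. Leaving out the second or the third non-KO morula gave 1 call each, for which no share of all genes is given. The median difference was -0.03, that of all genes -0.04, and 35 of the genes were above 0.

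Mrpl49, specific to mitochondria (ENSMUSG00000007338.9, chr19:6053630-6057751), had 78.4 and 69.0 CPM in the KO morulae and 181.6, 193.4 and 139.1 in the non-KO morulae. The KO pair was lower than each of the other 17 embryos, yet the difference of -1.22 (SE 0.26) did not pass over all genes (adjusted p = 0.0674). Syvn1 overlaps it on the opposite strand. Mrpl24, a large-subunit protein with a bacterial homologue, had 36.9 and 42.3 CPM against 92.9, 67.5 and 77.5, and again the KO pair was the lowest of 19 (-1.001, SE 0.21, adjusted p = 0.0674). Rrnad1 overlaps it on the opposite strand. Mrpl34 had 43.5 and 43.9 CPM against 100.3, 69.1 and 77.0 (-0.91, SE 0.28, adjusted p = 0.174), and Mrpl57, a mitochondria-specific protein, 145.4 and 160.7 against 274.7, 267.0 and 258.7 (-0.80, SE 0.21, adjusted p = 0.128). Neither Mrpl49 nor Mrpl24 holds CCGGAAG in its window, whereas Mrpl34 does.

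The largest positive differences were smaller than these. Mrpl38 had 86.1 and 83.3 CPM against 58.2, 45.9 and 67.6 (0.56, SE 0.26, adjusted p = 0.397). Mrpl39, Mrpl53 and Mrpl58, the last known as the peptidyl-tRNA hydrolase Ict1, stood at 0.45 (SE 0.30), 0.37 (SE 0.27) and 0.32 (SE 0.21), with adjusted p of 0.601, 0.650 and 0.604. The groups did not overlap for 9 genes with the KO above and 14 with the KO below, where 12.5% and 12.3% of all tested genes were so separated. None of the genes on the lists of translation factors, assembly factors or synthetases was called in this comparison; 0 of 14, 2 of 25 and 2 of 22 reached an unadjusted p under 0.05, the 2 assembly factors both lower.

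The 2 KO effects were compared by a test of the interaction, since a call in one comparison and not in the other does not show that they differ. It was called for 3 of the 78 genes, where 0.907% of all tested genes were. Mrps21 had -2.02 in the Gabpb1 cross and 0.15 (SE 0.24) in the Alyref cross, a difference of -2.17 (SE 0.34, adjusted p = 0.0149). Mrpl49 had 0.45 (SE 0.25) and -1.22, a difference of 1.67 (SE 0.36, adjusted p = 0.0402), with 146.5, 234.1 and 235.9 CPM in the morulae labelled Gabpb1 KO against 134.1 and 167.2. Mrpl34 had 80.3, 123.3 and 80.2 CPM against 66.96 and 40.7 there, and a difference of 1.72 (SE 0.39, adjusted p = 0.0492). For Mrpl27 the difference was -1.18 (SE 0.30, adjusted p = 0.0736) and for Mrpl33 -0.62 (SE 0.35, adjusted p = 0.384), so those falls were not shown to be limited to one cross. Mrps21 lost the call without the second Alyref KO morula (adjusted p = 0.0551) or embryo 2 of the Gabpb1 non-KO morulae (0.0867), while Mrpl49 and Mrpl34 each lost it when any of 8 of the 10 morulae was left out. Outside the 78, Mtg1, a GTPase of large-subunit assembly, stood at -0.93 (SE 0.23) in the Alyref cross and 0.85 (SE 0.23) in the Gabpb1 cross, a difference of 1.78 (SE 0.32, adjusted p = 0.0244).

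**Figure D5:**
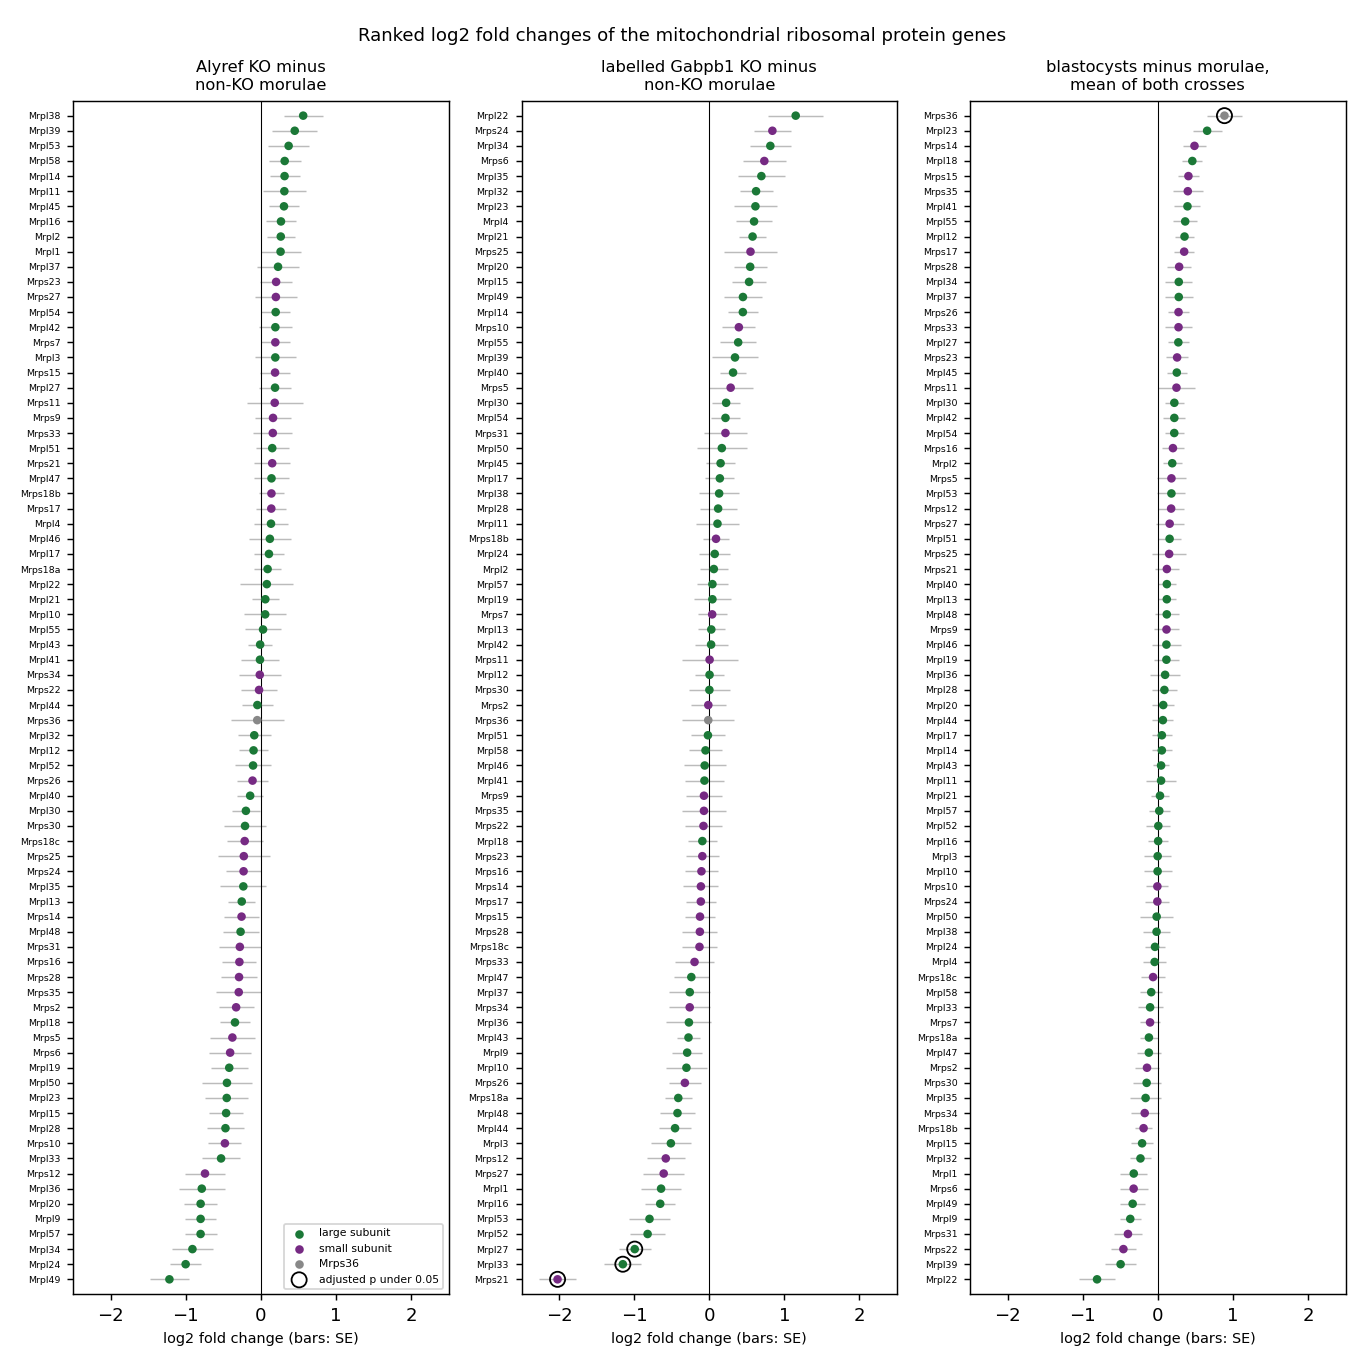
The 78 genes ranked by log2 fold change (x axes, bars are the SE) in 3 comparisons, coloured by ribosomal subunit, with circles round those called. Circles mark 0 genes for the Alyref KO, Mrps21, Mrpl33 and Mrpl27 for the labelled Gabpb1 KO, and Mrps36 for blastocysts against morulae.

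Non-KO blastocysts and non-KO morulae of one age were compared in each cross. In the Alyref cross 7 of the 78 genes were called, 4 higher and 3 lower in blastocysts, a share of the list below the 13% called over all genes. In the Gabpb1 cross 0 were called, as were 0.00% of all genes, with 2 higher and 2 lower of the 78 at an unadjusted p under 0.05, against 6.72% of all genes. In the mean of both crosses 1 was called, where 4.36% of all genes were. The difference between the crosses was called for 0 of the 78 and for 0.00543% of all genes. At an unadjusted p under 0.05 there were 9 of the 78, against 13.8% of all genes, and voom with sample weights called 2 of the 78 and 6.18% of all genes. The count in the Alyref cross rose to 13 without the third non-KO morula and fell to 0 without the second. These had the highest and the lowest score of their group on the first principal component. The count was 2 without the first, and 0, 0 and 2 without each blastocyst in turn. No share of all genes is given for these counts, so they do not show whether the 78 moved more than other genes.

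Mrpl22 fell most, with 403.7, 677.5 and 271.1 CPM in morulae of the Alyref cross and 142.4, 129.8 and 183.6 in its blastocysts (log2 difference -1.57, SE 0.33, adjusted p = 0.0108). The groups did not overlap. In the Gabpb1 cross it had 217.0 and 209.1 CPM in morulae and 186.9, 279.8 and 151.2 in blastocysts with overlapping values (-0.05, SE 0.36, adjusted p = 0.997), and the difference between crosses had an adjusted p of 0.237. Mrpl15 (-0.68, SE 0.20, adjusted p = 0.0381) and Mrps31 (-0.84, SE 0.25, adjusted p = 0.0407) were the other 2 called lower. Mrpl15 encodes a large-subunit protein with a bacterial homologue and Mrps31 a mitochondria-specific small-subunit protein.

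Higher in blastocysts of the Alyref cross were Mrps14 (0.77, SE 0.21, adjusted p = 0.0289), Mrps16 (0.67, SE 0.20, adjusted p = 0.0400) and Mrpl41 (0.76, SE 0.23, adjusted p = 0.0416). Mrps14, of the small subunit, went from 175.3, 134.8 and 194.2 CPM to 277.5, 310.7 and 269.5. For Mrps16, also of the small subunit, the values were 78.9, 50.1 and 70.9 against 105.7, 99.6 and 113.0 CPM. Mrpl41, of the large subunit, had 53.2, 31.1 and 40.7 against 82.1, 70.8 and 59.2. The groups did not overlap for any of these 3.

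Mrps36 was the gene called in both the Alyref cross and the mean of the crosses. It had 18.6, 15.7 and 41.9 CPM in morulae and 70.3, 62.3 and 56.6 in blastocysts of the Alyref cross (1.31, SE 0.32, adjusted p = 0.0186), and 33.5 and 54.5 against 57.6, 67.5 and 57.0 in the Gabpb1 cross (0.46, SE 0.35, adjusted p = 0.850). Over both crosses the difference was 0.89 (SE 0.24, adjusted p = 0.0476), and the call was lost when any 1 of the other 10 non-KO embryos was left out (adjusted p from 0.0593 to 0.137), though not without the third Alyref morula (0.00215). Its pseudogenes Mrps36-ps1 and Mrps36-ps2 had 6.0, 5.2 and 13.5 CPM and 3.8, 3.6 and 9.8 CPM in the same morulae, low and high in the same embryos. Over the 19 embryos Mrps36-ps1 had 30.6% to 34.9% of the counts of Mrps36, and Mrps36-ps2 had 20.3% to 23.9%. Whether reads that match several loci were counted is not given in the sources used here, so the values of the 3 loci are uncertain. As its product is not a mitochondrial ribosomal protein, the mean of the crosses showed no called change in a gene of the ribosome itself.

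Other differences in the mean of the crosses did not pass. On the high side these were Mrpl23 (0.66, SE 0.19, adjusted p = 0.0608), Mrps14 (0.49, SE 0.16, adjusted p = 0.0773) and Mrpl18 (0.46, SE 0.13, adjusted p = 0.0564). The pseudogene Mrpl23-ps1 had 80.1% to 86.9% of the counts of Mrpl23 over the 19 embryos and a difference of 0.63 (SE 0.19, adjusted p = 0.0631), so the value of Mrpl23 is uncertain for the same reason. On the low side they were Mrpl22 (-0.81, SE 0.24, adjusted p = 0.0601), Mrpl39 (-0.50, SE 0.20, adjusted p = 0.148), Mrps22 (-0.46, SE 0.16, adjusted p = 0.100) and Mrps31 (-0.40, SE 0.19, adjusted p = 0.207). With the ERCC spike-in as the scale, the median of all genes moved to -0.61 from -0.02 in this comparison and 77 of the 78 were below 0, so the positive values of Mrpl23, Mrps14 and Mrpl18 are relative to the other genes.

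The list of complex I genes took every protein-coding symbol that starts with Nduf, without a check that each product is a complex I subunit. It also holds assembly factors (Ndufaf1 to Ndufaf8). It had 16 of 45 higher and 0 lower in blastocysts of the Alyref cross, with a median of 0.63, and 6 higher in the mean of the crosses. Those 6 were Ndufa8, Ndufv3, Ndufs6, Ndufs7, Ndufb10 and Ndufa10, with log2 differences of 0.54 (Ndufs6) to 0.70 (Ndufa10). The median of the 78 ribosomal genes was 0.12 and 0.08 in those comparisons. Cytosolic ribosomal proteins had 0 of 83 higher and 10 lower in the Alyref cross, with a median of -0.34, and 1 lower in the mean of the crosses, Rpl5 (-0.69, SE 0.16, adjusted p = 0.0321). Trophectoderm marker sums were 597 to 1859 CPM in those morulae and 4067 to 6608 CPM in those blastocysts, and their part in these differences was not tested.

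Non-KO embryos of different parents were also compared. Between non-KO morulae of the crosses, 2 of the 78 genes were called, both lower in the Gabpb1 cross, where 1.85% of all tested genes were called. Mrpl15 had 206.4 and 184.0 CPM there against 359.7, 550.8 and 319.8 in the Alyref cross (log2 difference -1.07, SE 0.23, adjusted p = 0.0361). Mrps18b, a small-subunit protein, had 183.9 and 197.3 against 324.5, 351.0 and 281.5 (-0.74, SE 0.17, adjusted p = 0.0419), and the 2 groups did not overlap for either gene. The count was 8 without the third non-KO morula of the Alyref cross and 0 without any other one of the 5 embryos. No share of all genes is given for these counts. Alyref KO morulae had 360.0 and 343.8 CPM of Mrps18b, close to the non-KO morulae of their own cross.

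Against WT blastocysts, 0 of the 78 genes were called in blastocysts of the Alyref cross and 0 in those of the Gabpb1 cross, with 0.00% of all genes called in each. At an unadjusted p under 0.05 there were 1 and 5 of the 78, against 2.94% and 6.1% of all genes. DESeq2 called 0 of the 78 in each, against 0.0817% and 0.229% of all genes, and voom with sample weights 0 in each, against 0.223% and 0.0543%. Limma on log2 FPKM also called 0 of the 78 in each, against at most 0.0272% of all genes. The medians of the 78 were 0.05 and -0.08. In all, 13 of the 78 genes were called in at least 1 of the 10 comparisons, and the same count over all tested genes was not made. The stage comparison of the Alyref cross alone called 13% of all tested genes, so this count shows nothing particular to the list.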

How the data were processed

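PolyA RNA of 19 single embryos was read from 1 deposited table of raw counts per gene. Per the submitters' processing notes, Trimmomatic, Trim Galore, cutadapt, STAR and featureCounts were used with mm10; versions, order and the strand setting are not given in the sources used here. Per the labels, cDNA was amplified with 16 PCR cycles and read at 50 and 25 bases. The counts were whole numbers, 7.49 to 31.5 M per embryo, with 92 ERCC rows kept apart from library sizes; PCR reads without molecular identifiers are not independent molecules.

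Genes with FPKM of 1 or more in 2 or more embryos (18410) were tested with edgeR 4.0.16 in R 4.3.3 (TMM, quasi-likelihood F test, 7 group means, 12 residual degrees of freedom), with Benjamini-Hochberg adjustment over all of them; called means an adjusted p under 0.05, and SE is the log2 difference divided by the root of F. The scripts were tested on simulated data. Alternatives used limma 3.58.1, DESeq2 1.42.0, other scalings and filters, and left out each embryo. Called genes were named, with the 4 largest differences each way in both KO comparisons and the mean stage comparison and the 4 highest and lowest levels. The genes and lists were chosen with earlier results of these data known; Mrpl21, Mrpl43, Mrps11 and Mtg1 were named after their values were seen, the other pathway genes because they were called or are partners of Gabpb1. Promoter sequences come from RefSeq (GRCm38.p6). Mtres1 and Mtrfr, on the lists, matched no symbol.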

Additional observations from a re-analysis of the deposited data

Results flagged for a closer look

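For 3 genes the difference between KO and non-KO morulae was itself different in the 2 crosses, by a test of the interaction in edgeR's quasi-likelihood fit. Mrps21 was lower in morulae labelled Gabpb1 KO relative to the Alyref effect (difference of log2 differences -2.17, adjusted p = 0.0149), with all 3 of those embryos below every other embryo. Mrpl34 (1.72, adjusted p = 0.0492) and Mrpl49 (1.67, adjusted p = 0.0402) were higher by the same measure, with the Alyref KO pair below the non-KO morulae of its cross and the mean of the morulae labelled Gabpb1 KO above that of theirs.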

How the results depend on the processing

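The number of the 78 genes called depended on the tool. DESeq2 called 6 for the Alyref KO, 9 for the labelled Gabpb1 KO, 8 for their difference, 13 for stage in the Alyref cross, 6 for the mean stage difference and 6 between non-KO morulae, where its shares of all genes were 2.73%, 6.99%, 4.87%, 20.5%, 12.9% and 9.31%. Voom with sample weights called 8 for the Alyref KO, 7 for the difference of KO effects, 24 for stage in the Alyref cross, 14 for the mean stage, 2 for the difference of stage differences and 12 between non-KO morulae, where its shares of all genes were 4.57%, 4.2%, 39.4%, 23.5%, 6.18% and 14.7%. Limma on log2(FPKM + 1) and log2(FPKM + 0.1) called 1 and 1 for the Alyref KO and 3 and 2 for the mean stage. The shares of all genes were 0.891% and 0.435% for the Alyref KO and 6.61% and 5.34% for the mean stage. Fits of the compared groups alone called 0 in the labelled Gabpb1 KO, the difference of KO effects, both stage comparisons that had calls and the non-KO morulae. Their shares of all genes were 0.13% for stage in the Alyref cross, 2.82% for the mean stage and 0 for the rest. These fits have few residual degrees of freedom. Without a filter 1 was called for the difference of KO effects, 3 for stage in the Alyref cross and 1 between non-KO morulae, where 0.306%, 5.07% and 1.02% of all genes were. With filterByExpr the counts were 1, 5 and 1, where 0.781%, 10.2% and 1.23% of all genes were called. The cause was not tested.

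ERCC scaling called 0 for the labelled Gabpb1 KO, the difference of KO effects, stage in the Alyref cross and the non-KO morulae, where 0.141%, 0.0543%, 1.91% and 0.0109% of all genes were. It moved the median of the 78 to -0.46 for the labelled Gabpb1 KO, -0.31 for the difference of KO effects, -0.24 and -0.78 for stage in the Alyref and Gabpb1 crosses, -0.52 for the mean stage, -0.60 for the difference of stage differences, 0.30 between non-KO morulae and 0.21 for the Alyref cross against WT; the medians of all genes moved to -0.40, -0.33, -0.34, -0.86, -0.61, -0.53, 0.39 and 0.15. Limma on log2 FPKM with pseudocounts 1 and 0.1 gave medians of -0.10 and -0.10 for the difference of KO effects and -0.19 and -0.20 for the difference of stage differences. Mrps21 ranged from -2.49 to -1.74 over its alternatives and lost its call under ERCC scaling (adjusted p = 0.0983) and in the compared groups alone (0.319). No named gene that was called changed direction.

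No pairing by replicate number was evident: the deviations of same-numbered embryos had correlations of -0.174 to 0.215, over 0.1 in 8 of 52 pairs. In groups of 2 embryos the deviations from the mean mirror each other, so these pairs are not all separate. Whether embryos shared parents or a session cannot be told from them. With the number as a block, 2 of the 78 were called for the labelled Gabpb1 KO, 1 for the difference of KO effects, 6 for stage in the Alyref cross, 2 between non-KO morulae and 0 for the mean stage. The shares of all genes were 1.44%, 0.636%, 10.9%, 1.78% and 2.18% in that order. The other 5 comparisons had 0 of the 78 and at most 0.0435% of all genes.

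Leaving out each embryo in turn gave 0 to 1 calls for the Alyref KO, 1 to 4 for the labelled Gabpb1 KO (1 without its embryo 3 or the second non-KO morula), 0 to 6 for the difference of KO effects, 0 to 13 for stage in the Alyref cross, 0 to 9 for the mean stage, 0 to 2 for the difference of stage differences and 0 to 8 between non-KO morulae. Shares of all genes are not given for these fits. Where a group was left with 1 embryo, that embryo was assumed to vary like the other groups. Depth did not limit detection of these genes, since each had 185 counts or more in every embryo; the number of embryos per group limits the precision.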
